A study of Mus musculus with 6 samples.

Results

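Transcripts of 3 class III receptor tyrosine kinases, Flt3, Kit and Csf1r, and of 2 ligands, Flt3l and Csf1, were followed in mouse acute myeloid leukemia cells under labels of low and high overexpression of the histone methyltransferase DOT1L and in a reference label, NT. The 5 genes were taken by name from a count table of 49585 gene IDs. The leukemia was driven by KMT2A-MLLT3, in which a part of KMT2A, itself a methyltransferase of histones, is joined to MLLT3, a protein that can bind DOT1L. Bone marrow from mice ill with this leukemia received DOT1L by transduction, and populations with low and high expression were sorted and collected 3 days later. All cells were kept in DMEM with serum, penicillin and streptomycin, murine interleukin 3, interleukin 6 and stem cell factor, the Kit ligand, so the culture supplied 1 of the ligands of this receptor family. There were 6 libraries in 3 groups of 2, labelled NT, DOT1L Low and DOT1L High, and each group held 1 library of leukemia K3117 and 1 of leukemia K3174. The labels do not expand NT, and whether those cells were transduced or sorted is not given, nor is the vector of DOT1L, the age or strain of the mice, or whether the K numbers stand for separate mice. If they do not, the spread behind each p-value is that of these libraries alone and may be technical.

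Class III receptors carry immunoglobulin-like domains outside the cell and a kinase domain split by an insert inside it, and they signal as dimers once a dimeric ligand binds. In blood formation Kit is known from stem cells, early progenitors and mast cells, Flt3 from multipotent and lymphoid progenitors and the precursors of dendritic cells, and Csf1r from the monocyte and macrophage line. FLT3 and KIT are also known as genes mutated in acute myeloid leukemia, and Flt3 is a known high-expression gene of leukemias with KMT2A fusions. None of this background was tested here.

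The libraries held between 22908445 and 33265848 counts, and 15812 genes had enough counts to be tested. Levels are in CPM, a gene's counts relative to the library's total, scaled by the TMM method, fold changes come from a quasi-likelihood fit in edgeR that blocks on the leukemia, and adjusted p is the Benjamini-Hochberg value over all genes tested, called at 0.05 or less. At that threshold 17.3% of genes passed for High over NT (10.0% higher and 7.32% lower), 3.34% for Low over NT (2.05% and 1.29%), 5.48% for High over Low (4.12% and 1.35%) and 9.37% for K3174 over K3117. The contrasts with NT share the NT libraries, and each contrast shares libraries with the others. Mouse Dot1l was counted at 127.8, 183.7 and 149.8 CPM in NT, Low and High of K3117 and at 158.0, 152.0 and 136.4 CPM in K3174, with a High over NT log2 fold change of 0.00 ± 0.15 (SE, adjusted p = 1). Its counts did not follow the order of the labels, so the groups are called by their labels; whether the introduced DOT1L is counted under the mouse gene is not given in the sources used here. Some markers listed for other lineages had no count in any library. They included Cd3e, Cd8a, Ncr1 and Ms4a1 of T, NK and B cells and Col1a2, Col3a1, Cxcl12 and Lum of stroma. C1qa and C1qc of macrophages, Cd209a of dendritic cells and Mcpt1 of mast cells had none either. Other markers of these lists were counted. Those tested were 12 of 16 for monocytes and macrophages, 10 of 14 for dendritic cells and 9 of 14 for mast cells and basophils. For T, NK and B cells 4 of 13 were tested, as were 4 of 13 for stroma and endothelium. A marker without counts thus does not show that its lineage was absent.

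The 3 receptors had 3 different patterns over the labels, in the same direction in both leukemias. Flt3 fell in the libraries labelled Low and fell further in those labelled High. Kit rose in Low and stood at a like level in High. Csf1r was close to NT in Low and rose in High. Of the 3 receptors, 3 passed for High over NT against 17.3% of all genes, 2 for Low over NT against 3.34% and 2 for High over Low against 5.48%. Neither Flt3l nor Csf1 passed in any contrast of the labels.

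**Figure D1:**
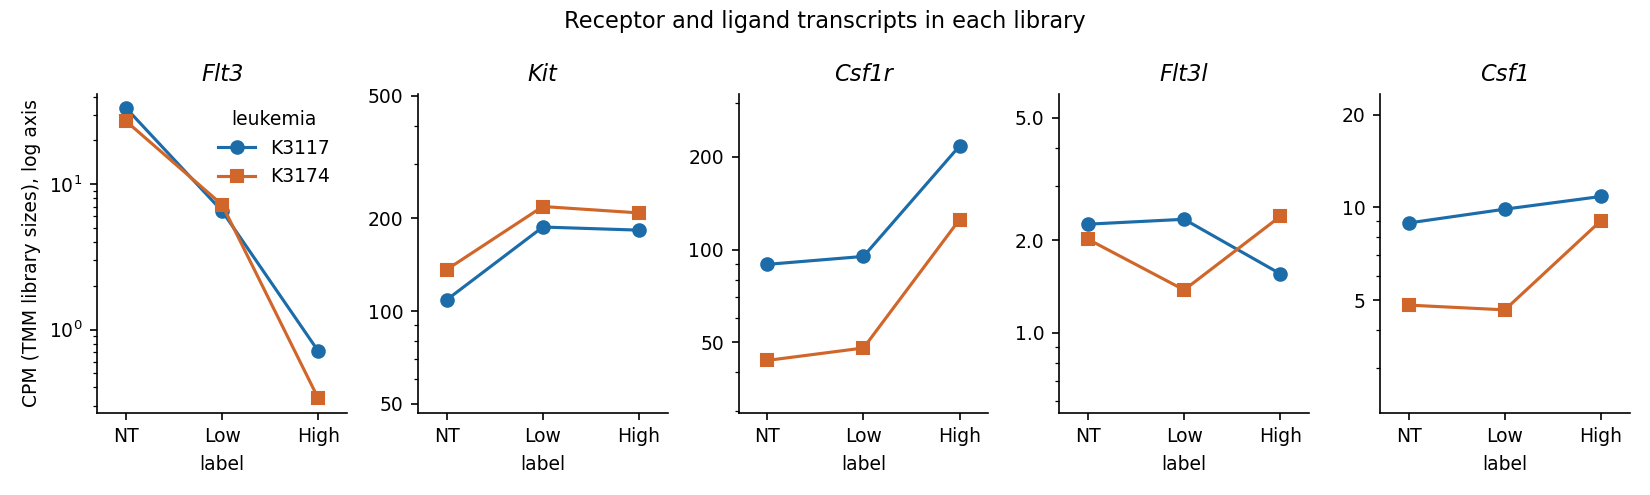
Level of each receptor and ligand (TMM-scaled CPM, log axis whose range differs between panels) in the libraries labelled NT, Low and High, with 1 point per library and a line per leukemia (blue circles K3117, orange squares K3174). Flt3 drops at each step to below 1 CPM in both High libraries, Kit steps up once between NT and Low, Csf1r steps up between Low and High, and the lines of Flt3l cross.

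Flt3, the receptor of early progenitors (ENSMUSG00000042817.15, GRCm38 chromosome 5, 147330741 to 147400489, minus strand, protein coding), was counted 1113, 204 and 16 times in NT, Low and High of K3117 and 621, 241 and 10 times in K3174. In CPM this was 33.5, 6.54 and 0.711 in K3117 and 27.2, 7.23 and 0.337 in K3174. The 3 labels did not overlap, and the lowest NT library stood above both Low libraries, which stood above both High libraries. How many of all genes had labels that stood apart was not counted, here or for Kit and Csf1r below. NT averaged 30.3 ± 4.44 CPM, Low 6.88 ± 0.489 and High 0.524 ± 0.265 (SD, n = 2). High over NT gave a log2 fold change of -5.89 ± 0.28 (adjusted p = 5.52e-07), 59.5-fold lower, with a 95% interval for the remaining fraction of 0.0109 to 0.0259. Among the 15812 genes tested, this was number 19 from the lowest fold change in that contrast. Low over NT gave -2.13 ± 0.21 (adjusted p = 0.000282), 4.37-fold lower, and High over Low gave -3.77 ± 0.29 (adjusted p = 7.97e-05), 13.6-fold lower. The fall was seen in each leukemia: within K3117 the log2 CPM differences were -2.34 for Low over NT and -5.42 for High over NT, and within K3174 they were -1.90 and -6.07. Without the leukemia as a block, High over NT still passed, while Low over NT gave -2.14 with an adjusted p of 0.304 and High over Low -3.74 with an adjusted p of 0.184. In these bulk libraries fewer cells with a transcript and less of it per cell cannot be told apart, for Flt3 or for any gene below.

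Kit, the receptor of stem cell factor (ENSMUSG00000005672.12, GRCm38 chromosome 5, 75574916 to 75656722, plus strand, protein coding), lies on the same chromosome as Flt3. Its level was 109, 188 and 183 CPM in NT, Low and High of K3117 and 136, 219 and 208 CPM in K3174. Both NT libraries were below all 4 libraries of the DOT1L labels, and the ranges of Low and High overlapped. The average was 122.6 ± 19.5 CPM for NT, 203 ± 22.0 for Low and 196 ± 17.8 for High (SD, n = 2). Low over NT gave a log2 fold change of 0.73 ± 0.11 (adjusted p = 0.00446), 1.66-fold higher with a 95% interval of 1.40 to 1.97. High over NT gave 0.68 ± 0.11 (adjusted p = 0.00141), 1.60-fold higher with an interval of 1.35 to 1.90. High over Low was -0.05 ± 0.11 (adjusted p = 0.924), and its fold had an interval of 0.814 to 1.15, so a difference between those labels of up to about that size was not excluded. The rise over NT was of like size in the leukemias, 0.78 and 0.75 on the log2 scale for Low and High within K3117 and 0.68 and 0.61 within K3174. Low over NT missed the threshold without the Low library of K3174 (0.75, adjusted p = 0.0548), and without the block neither contrast with NT passed (adjusted p = 0.575 for Low and 0.0734 for High).

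The bases just before the transcription starts of Flt3 and Kit are shown because these genes share a chromosome and moved in opposite directions in both contrasts with NT. They are the untranscribed part of the RefSeq promoter windows (GRCm38.p6), written 5′ to 3′ on each gene's own strand, 250 bases at chr5:147400490-147400739 for Flt3 on the minus strand and 179 bases at chr5:75574737-75574915 for Kit on the plus strand. Capitals mark the core bound by ETS factors such as Spi1 and Fli1, GGAA or its reverse complement TTCC.
Flt3: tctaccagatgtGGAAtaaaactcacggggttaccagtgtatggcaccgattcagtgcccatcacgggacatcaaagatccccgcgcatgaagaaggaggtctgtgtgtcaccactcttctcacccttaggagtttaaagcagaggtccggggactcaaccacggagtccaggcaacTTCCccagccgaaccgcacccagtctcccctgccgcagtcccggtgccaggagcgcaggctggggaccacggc
Kit: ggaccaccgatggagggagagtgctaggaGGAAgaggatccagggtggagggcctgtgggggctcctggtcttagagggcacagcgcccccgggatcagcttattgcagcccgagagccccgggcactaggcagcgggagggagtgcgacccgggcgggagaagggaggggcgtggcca
The Flt3 window held GGAA on either strand in 2 places and the Kit window in 1, and windows of those lengths hold it in 93.4% and 86.4% of 27025 promoters. Other motifs were searched on both strands and may overlap. The Flt3 window had 1 match each to the E-box CANNTG (in 66.0% of promoters), TGNGGT of RUNX factors (39.9%) and AACNG of MYB (74.1%), and the Kit window had none of these. The Kit window had 1 match to GGGCGG of SP and KLF factors (20.7%), and the Flt3 window had none (32.9%). Neither held the core of GATA factors, GATA (in 54.1% of promoters over the Flt3 length and 46.2% over the Kit length). Neither held the MEIS core TGACAG (16.0% and 11.9%), the PBX and HOX motif TGATNNAT (7.9% and 6.0%) or the C/EBP motif TTNNGNAA (36.9% and 30.0%). GC content was 59.2% in Flt3 and 69.3% in Kit, at or above that of 71.5% and 91.9% of promoters over the same length, with 13 and 10 CpG. A match is a description of the letters and was not tested as a site.

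Csf1r encodes the receptor that binds Csf1 and interleukin 34. The gene (protein coding, ENSMUSG00000024621.15) lies on the plus strand of GRCm38 chromosome 18, 61100598 to 61132149, and was at 89.6, 95.1 and 217 CPM in NT, Low and High of K3117 and at 43.7, 47.9 and 125 CPM in K3174. NT and Low overlapped, and both High libraries were above the other 4. The average was 66.6 ± 32.5 CPM for NT, 71.5 ± 33.3 for Low and 171.3 ± 65.01 for High (SD, n = 2), and each SD spans the gap between the leukemias. Within each leukemia the High library was also above its own NT and Low libraries, by 1.28 and 1.19 on the log2 scale in K3117 and by 1.52 and 1.38 in K3174. High over NT gave a log2 fold change of 1.40 ± 0.12 (adjusted p = 1.69e-05), 2.64-fold higher with a 95% interval of 2.19 to 3.17. High over Low gave 1.29 ± 0.12 (adjusted p = 0.000135), 2.45-fold higher. Low over NT gave 0.11 ± 0.12 (adjusted p = 0.876), and its fold had an interval of 0.898 to 1.29. Csf1r shares 873 bp of exon with Hmgxb3 on the opposite strand, and whether counting used strand is not given, so reads there cannot be assigned. Hmgxb3 itself had a log2 fold change of -0.28 ± 0.14 (adjusted p = 0.22) for High over NT. Without the leukemia as a block Csf1r did not pass, at 1.36 (adjusted p = 0.188) for High over NT and 1.26 (adjusted p = 0.585) for High over Low.

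**Figure D2:**
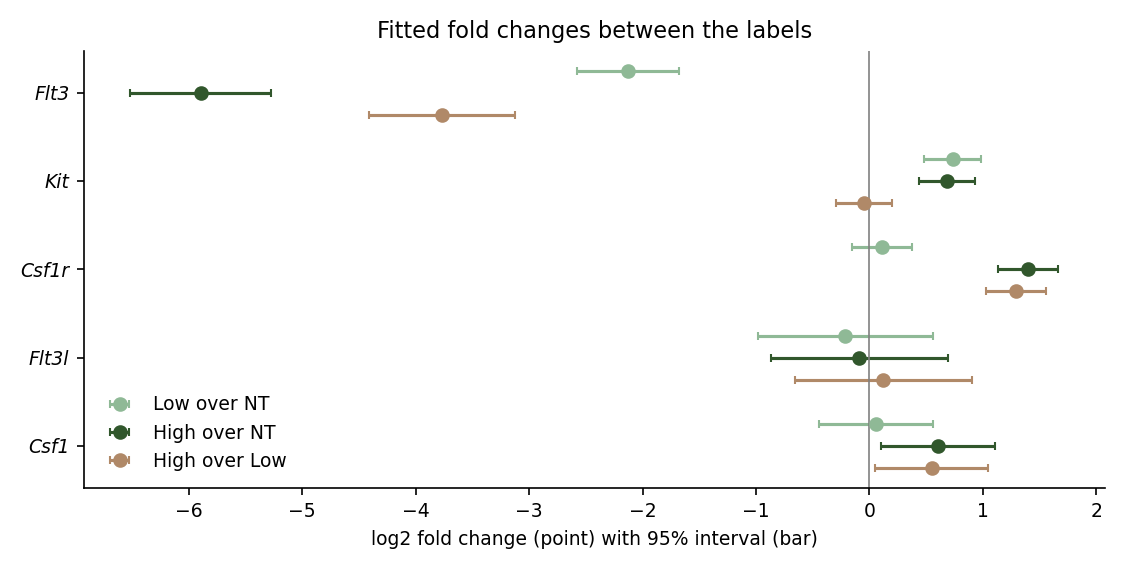
Fitted log2 fold changes (horizontal axis) of the 5 genes for Low over NT, High over NT and High over Low, with bars for the 95% interval. The intervals of Flt3 lie left of 0 in all 3 contrasts, those of Kit lie right of 0 for both contrasts with NT, those of Csf1r for both contrasts with High, and those of Flt3l span 0 in all 3.

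Scaled to exon length, as CPM for each kilobase of exon (RPKM), the receptors can be set beside each other. Csf1r was the most abundant of the 3 in NT of K3117, at 15.5 RPKM against 12.2 for Kit and 5.42 for Flt3, whereas Kit led in NT of K3174, at 15.3 RPKM against 7.57 for Csf1r and 4.40 for Flt3. Flt3 made up 16.4% and 16.1% of the summed RPKM of the 3 receptors in the NT libraries of K3117 and K3174. That share was 2.74% and 3.44% in Low and 0.198% and 0.121% in High. Kit took 36.9%, 54.6% and 35.3% in NT, Low and High of K3117 and 56.1%, 72.1% and 51.8% in K3174, so its share was highest in Low in both. Csf1r went from 46.8% and 42.7% to 64.5% in K3117 and from 27.7% and 24.4% to 48.1% in K3174. The sum of the 3 was higher at each label, from 33.2 to 38.6 and 58.3 RPKM in K3117 and from 27.3 to 34.0 and 45.1 RPKM in K3174. The RPKM ratio of Kit to Flt3 went from 2.25 in NT to 19.9 in Low and 178.5 in High of K3117 and from 3.48 to 20.96 and 429.2 in K3174. The High ratios rest on 16 and 10 counts of Flt3.

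**Figure D3:**
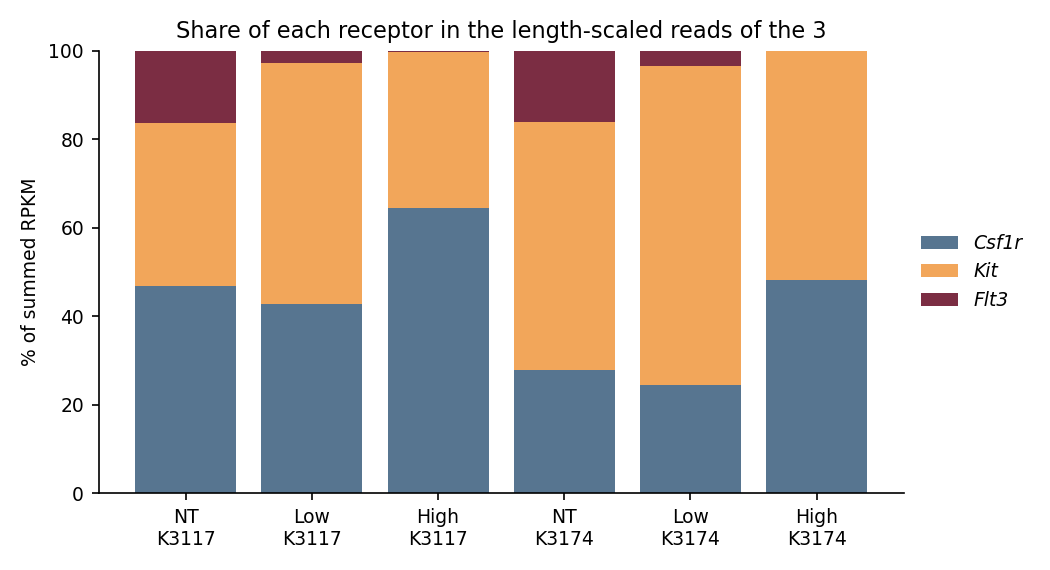
Share of Flt3, Kit and Csf1r in the summed RPKM of the 3 (percent, stacked bars from 0 to 100) in each of the 6 libraries. The Flt3 band shrinks from 16.4% and 16.1% in NT to 0.198% and 0.121% in High, the Kit band is widest in Low, and the Csf1r band is widest in High within each leukemia.

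The class has 2 further receptors. Pdgfrb, a receptor of platelet derived growth factors known from stroma, lies next to Csf1r, 15.5 kb away, and was at 17.8, 16.6 and 11.03 CPM in NT, Low and High of K3117 and 17.0, 14.1 and 14.6 CPM in K3174. High over NT gave Pdgfrb a log2 value of -0.44 ± 0.19 (adjusted p = 0.139), so it did not pass where Csf1r rose. Pdgfra had 1 count in each of 2 libraries and none in the other 4. Of 4 stromal and endothelial markers tested, Vcam1 rose (3.82 ± 0.36) and none fell, against 10.0% and 7.32% of all genes for High over NT. The summed level of that list was 171.8 to 214.1 CPM in NT, 153.7 to 234.3 in Low and 154.3 to 218.3 in High, most of it Pecam1.

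Flt3l, the Flt3 ligand (ENSMUSG00000110206.1, GRCm38 chromosome 7, 45129788 to 45136432, minus strand, protein coding), was at 2.26, 2.34 and 1.56 CPM in NT, Low and High of K3117 and 2.01, 1.38 and 2.39 CPM in K3174. The labels overlapped, and the leukemias moved in opposite directions in all 3 contrasts. High over NT was -0.09 ± 0.36 (adjusted p = 0.914), with a 95% interval of 0.547 to 1.62 for the fold, and Low over NT was -0.21 ± 0.35 (adjusted p = 0.937), with 0.507 to 1.47. With 35 to 75 counts a library, changes within those bounds were not excluded, and the smallest detectable change was not estimated. Flt3l shares 856 bp of exon with Gm45713 on the same strand, which had no count.

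Csf1, a ligand of Csf1r (ENSMUSG00000014599.10, GRCm38 chromosome 3, 107741048 to 107760469, minus strand, protein coding), was at 8.90, 9.87 and 10.9 CPM in NT, Low and High of K3117 and 4.82, 4.65 and 9.05 CPM in K3174. High was the highest label in each leukemia, by 0.28 over NT on the log2 scale in K3117 and by 0.90 in K3174. The fitted High over NT value was 0.60 ± 0.23 (adjusted p = 0.0979), with an interval of 1.07 to 2.15 for the fold, and it passed with NT of K3117 left out (0.72, adjusted p = 0.039), with High of K3117 left out (0.95, adjusted p = 0.0166) and when genes with low counts were kept (0.60, adjusted p = 0.0446). Low over NT was 0.06 ± 0.23 (adjusted p = 0.982). On the RPKM scale Csf1 was at 1.69 to 2.05 in K3117 and 0.88 to 1.71 in K3174, against 15.5 to 37.6 and 7.57 to 21.7 for its receptor.

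Among the other ligands of the class, Kitl, which encodes stem cell factor, had 58, 12 and 8 counts in NT, Low and High of K3117 and 12, 2 and 0 in K3174. It passed for High over NT (adjusted p = 0.0131) and not for Low over NT (adjusted p = 0.0666), and NT of K3117 was the highest library. Because 1 library had no count, its fitted fold depends on the prior count and is not given. Kitl was thus at 0 to 1.74 CPM in cells whose medium supplied its product. Il34, the other ligand of Csf1r, had 2 counts in 1 library. Pdgfb was at most 0.667 CPM and did not pass (High over NT 0.11, adjusted p = 0.944), Pdgfa was at most 0.394 CPM, Pdgfc had 2 counts and Pdgfd none. Of the 8 ligands 4 were tested, and Kitl was the 1 that passed for High over NT, where 17.3% of all genes passed.

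The receptors of the cytokines in the medium were followed with Kit. Of 6, Kit, Csf2rb and Csf2rb2 rose for High over NT and none fell, against 10.0% of all genes higher and 7.32% lower. The median log2 fold change of the 6 was 0.55, against -0.01 over all genes tested. Csf2rb, the beta chain shared by the receptors of interleukin 3, interleukin 5 and GM-CSF, went from 163.4 to 318.9 CPM (0.98 ± 0.13, adjusted p = 0.000286). Csf2rb2, the beta chain specific to interleukin 3, went from 36.1 to 95.3 CPM (1.43 ± 0.20, adjusted p = 0.000433). The beta chains are close paralogs, so the split of reads between them is uncertain. Il6ra (0.42, adjusted p = 0.0645), Il3ra (-0.58, adjusted p = 0.0919) and Il6st, the shared signal chain of interleukin 6 (-0.33, adjusted p = 0.127), did not pass. In Low, Kit was the member of the 6 that passed, where 3.34% of all genes passed. Csf2rb and Csf2rb2 also rose for High over Low, by 0.87 and 1.72, a step that Csf1r showed and Kit did not. In that contrast 4.12% of all genes were higher and 1.35% lower.

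Signal relays downstream of the receptors, the adaptors, kinases and lipid kinases that carry the signal, included 41 tested genes. For High over NT 12 rose and 2 fell, against 10.0% of all genes higher and 7.32% lower. The median of the list was 0.17. Fgr, a SRC family kinase of myeloid cells, rose by 2.34 ± 0.21 (2.95 to 15.2 CPM), and Pik3cb, a catalytic subunit of phosphoinositide 3-kinase, rose by 1.15 ± 0.15. Fyn, another SRC family kinase, had a log2 fold change of -1.77 ± 0.20 (29.3 to 9.06 CPM), and Grap, an adaptor related to Grb2, of -0.97 ± 0.18. Shc1, Sos2, Pik3r5, Plcg1, Vav1, Lyn, Fes and Mapk3 were among the others that rose. In Low over NT, 1 relay passed higher and 1 lower, against 2.05% and 1.29% of all genes. The lower one was Fyn (-0.95), a call lost without the Low library of K3174 (-0.68). In High over Low, 6 rose and 1 fell, against 4.12% of all genes higher and 1.35% lower.

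Brakes on receptor signals, such as ubiquitin ligases, phosphatases and SOCS proteins, moved in both directions. Of 34 tested, 7 rose and 6 fell for High over NT, against 10.0% of all genes higher and 7.32% lower. The median of the list was -0.01. Ptprj, a receptor phosphatase, rose by 1.44 ± 0.16, Pag1, an anchor of the kinase CSK, by 1.17 ± 0.12, Rasa2, a RAS GTPase activating protein, by 1.15 ± 0.14 and Sla, an adaptor that promotes receptor turnover, by 1.02 ± 0.12. Socs2, a feedback inhibitor of cytokine signals, had -1.12 ± 0.14, and Spry4, Spred1, Dusp5 and Lrig1 were among the others that fell. Low over NT had 1 of each, Rasa2 higher (0.70) and Socs2 lower (-0.58), against 2.05% and 1.29% of all genes. Both calls were lost without the Low library of K3174 (adjusted p = 0.475 and 0.529), and that of Socs2 also without the Low library of K3117 (0.285). High over Low had 4 higher and none lower, against 4.12% and 1.35% of all genes.

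Targets known to respond to these receptors also split. Of 20 tested, Fos, Ier3, Egr1 and Bcl2l11 rose for High over NT, and Bcl2, Ccnd1, Pim2, Etv4 and Etv5 fell. Of all genes 10.0% were higher and 7.32% lower, and the median of the list was 0.06. Bcl2, a survival factor, went from 74.8 to 57.1 and 27.6 CPM over the labels (-1.45 ± 0.13). Ccnd1, cyclin D1, went from 6.80 to 2.66 and 1.32 CPM (-2.34 ± 0.27). Pim2, a survival kinase, was at 22.6, 13.3 and 12.6 CPM (-0.86 ± 0.16). Fos, an immediate early gene, rose by 1.26 ± 0.23, and Ier3, another, by 1.14 ± 0.14. In Low over NT, Ier3 passed higher and Ccnd1 and Pim2 lower, against 2.05% and 1.29% of all genes. All 3 lost the call when either Low library was left out. Their log2 fold changes were then 0.60 and 0.77 for Ier3, -1.34 and -1.33 for Ccnd1 and -0.82 and -0.73 for Pim2.

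Transcription factors known from the regulation of the 3 receptor genes were listed together, 26 of them tested. For High over NT 9 rose and 8 fell, against 10.0% of all genes higher and 7.32% lower, with a list median of 0.22. Those that fell held the fusion target genes Hoxa9 (-0.75 ± 0.11), Meis1 (-1.18 ± 0.12), Pbx3 (-0.75 ± 0.13) and Mef2c (-1.49 ± 0.13), of which Hoxa9 and Meis1 are known activators of Flt3. Tcf4 (-1.27 ± 0.11), Irf8 (-1.09 ± 0.20), Satb1 (-0.79 ± 0.16) and Lmo2 (-0.50 ± 0.15) fell as well. Meis1 was at 88.7, 60.6 and 39.2 CPM and Mef2c at 435.6, 310.8 and 155.8 CPM over the labels, 2.27-fold and 2.80-fold lower in High than in NT. Those that rose held Spi1, the ETS factor required for Csf1r (188.1 to 319.8 CPM, 0.77 ± 0.12, adjusted p = 0.000818), Cebpb (0.81 ± 0.18), Runx1 (0.42 ± 0.12), Fli1 (0.63 ± 0.12), Ets2 (0.52 ± 0.12), Mitf (1.11 ± 0.25) and Gata1 (1.68 ± 0.30). The steepest rises of the list were in Cebpe, a factor of late granulocytes (22.4, 86.7 and 193.9 CPM, 3.303 ± 0.22), and Gfi1, a transcriptional repressor needed for granulocytes (42.2, 116 and 174.8 CPM, 2.04 ± 0.12).

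Over the labels, Gfi1, Cebpe, Tcf4 and Meis1 were the factors of the list that already passed in Low, at log2 fold changes over NT of 1.45, 2.07, -0.50 and -0.55, and the last 2 lost the call when either Low library was left out (adjusted p of 0.315 to 0.382). That made 2 higher and 2 lower of the 26 tested, against 2.05% and 1.29% of all genes for Low over NT. Spi1 did not pass for Low over NT (0.34, adjusted p = 0.182), nor did Gata2 (-0.20, adjusted p = 0.844), a factor of the Kit gene. Gata2 did not pass for High over NT either (0.14, adjusted p = 0.694), nor did Tal1 (0.63, adjusted p = 0.174) or Myb (0.25, adjusted p = 0.236). Klf4 and Tal1 rose for High over Low, by 1.48 and 1.66, as did Gata1 by 1.79. Whether any of these factors acted on the receptor genes was not tested.

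**Figure D4:**
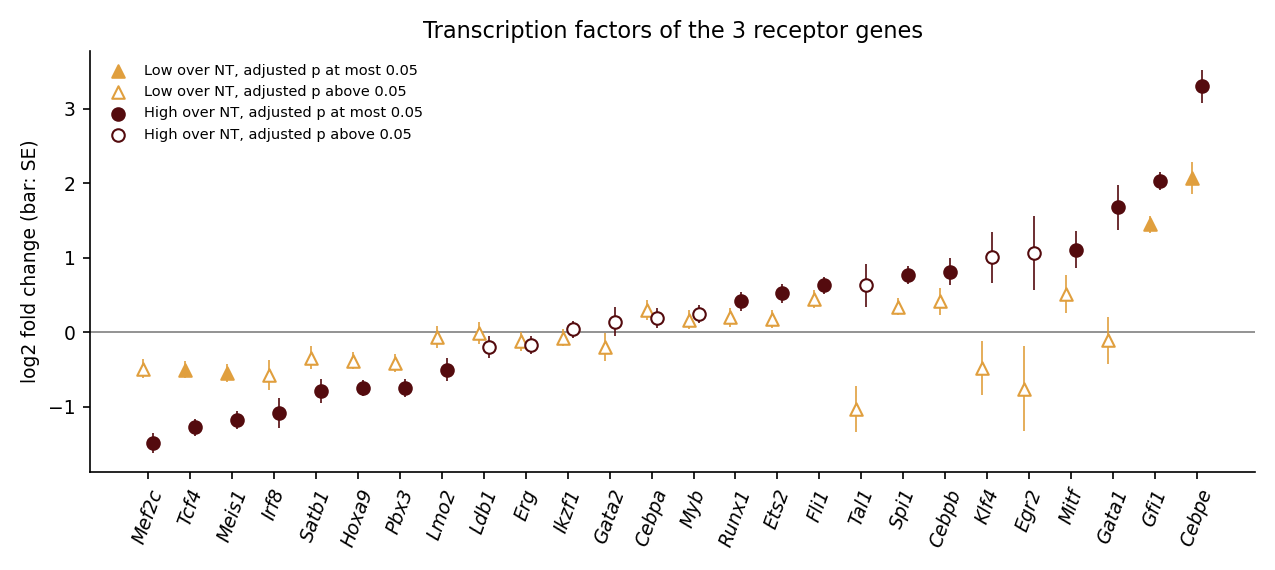
Log2 fold changes (vertical axis, bars ± SE) of the 26 tested transcription factors, ordered by High over NT (dark circles) with Low over NT beside them (light triangles), filled where the adjusted p is at most 0.05. Mef2c, Tcf4 and Meis1 stand at the low end and Gata1, Gfi1 and Cebpe at the high end, and of the Low values those of Gfi1, Cebpe, Tcf4 and Meis1 are filled.

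Genes for the folding and shedding of these receptors were also listed. Of 9 tested, Timp2, an inhibitor of metalloproteases (1.20 ± 0.21), and Rhbdf2, an adaptor of the sheddase ADAM17 (0.68 ± 0.15), rose for High over NT, and Adam17 itself, the protease that cuts Csf1r, Kit and Flt3 from the surface, had -0.49 ± 0.12 (adjusted p = 0.0157). The Adam17 call was lost without the High library of K3174 (-0.40, adjusted p = 0.25). The chaperones Hsp90ab1 (-0.26, adjusted p = 0.274) and Canx (0.09, adjusted p = 0.722) did not pass. The median of the list was 0.05, and of all genes 10.0% passed higher and 7.32% lower for High over NT. For Low over NT the log2 fold changes of these 5 genes lay between -0.34 and 0.30.

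Markers of the cell types that carry these receptors moved with the labels, and their part in the receptor results was not tested. Of all genes, 10.0% passed higher and 7.32% lower for High over NT. The shares were 2.05% and 1.29% for Low over NT and 4.12% and 1.35% for High over Low. They stand beside the marker counts in this and the next 2 paragraphs. Of 10 stem and progenitor markers tested, Kit rose and Cd34, Ly6a, Hlf, Mecom, Cd48 and Flt3 fell for High over NT; the list holds 2 of the receptors. Cd34 went from 233.8 to 185.0 and 116.3 CPM and Hlf from 25.7 to 10.3 and 3.58 CPM. The list summed to 505.2 to 612.6 CPM in NT, 525.9 to 531.1 in Low and 407.1 to 467 in High. Of 10 dendritic cell markers, none rose and Itgax, Siglech, Irf8, Tcf4 and H2-Ab1 fell, and their sum was 446.4 to 541.9, 280.5 to 403.2 and 187.4 to 271.1 CPM in NT, Low and High. Of the markers that define the dendritic line, Itgax was at 8.08 CPM and Zbtb46 at 0.294 CPM in NT.

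Beside the rise of Csf1r, the monocyte and macrophage list split, with 6 of 12 tested markers higher and 3 lower for High over NT. Adgre1, the F4/80 antigen, went from 33.5 and 27.4 CPM in NT and Low to 80.1 CPM in High (1.26 ± 0.13), and Lyz2, lysozyme, from 361.5 and 332.4 to 1258 CPM (2.09 ± 0.24). Ly86 (-1.04 ± 0.15), Ccr2 (-1.21 ± 0.16) and Cx3cr1 (-0.70 ± 0.15) fell. Cd68 (-0.25, adjusted p = 0.482) did not pass. The list summed to 418 to 1107 CPM in NT, 371.3 to 783.8 in Low and 1119 to 2126 in High. For Low over NT, where Csf1r did not pass, the 2 of 12 that passed were both lower, Ccr2 (-1.56, adjusted p = 0.000397) and Ctss (-0.55, adjusted p = 0.0479), and the median was -0.44. For High over Low, where Csf1r rose, 7 passed higher and none lower, with a median of 1.07.

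Other lineage lists were counted in the same way. Of 11 late neutrophil markers 10 rose for High over NT and none fell, and the sum was 24.7 to 119.3 CPM in NT, 112.5 to 1271 in Low and 1588 to 7034 in High. Mast cells are known to keep Kit high. Of 9 mast cell and basophil markers, 6 rose and none fell for High over NT, while 1 rose and 1 fell for Low over NT. Their sum was 121.2 to 206.3, 186.3 to 280.8 and 473.9 to 859 CPM, and Cpa3, a mast cell protease, went from 20.5 and 14.1 to 122.1 CPM. In Low over NT, where Kit rose, the member that passed higher was Hdc, histidine decarboxylase (1.86, adjusted p = 0.000202), the one that passed lower was Prss34, a basophil protease (-2.05, adjusted p = 0.0423), and the median of the list was -0.34. All 5 eosinophil markers tested rose for High over NT, with sums of 12.5 to 90.4, 58.6 to 149.2 and 433.4 to 1044 CPM. Of 9 erythroid and megakaryocyte markers Gata1 and Pf4 rose and none fell (34.4 to 39.9, 18.4 to 33.3 and 59.2 to 75.3 CPM), and of 4 T, NK and B cell markers Nkg7 rose and none fell (23.03 to 41.3, 35.9 to 58.7 and 56.5 to 67.8 CPM). The median log2 fold changes for High over NT were 6.19 for the late neutrophil list, 3.76 for eosinophils, 1.62 for mast cells and basophils, 0.80 for the erythroid and megakaryocyte list, 0.72 for monocytes and macrophages, 0.39 for stroma and endothelium, 0.00 for T, NK and B cells, -0.92 for stem and progenitor markers and -1.18 for dendritic cells, against -0.01 over all genes tested.

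Genes within 500 kb of each member were examined to set it beside its surroundings. Of all genes tested, 17.3% passed for High over NT. Around Flt3, 14 of 32 genes were tested, with a median High over NT log2 fold change of -0.04. The gene for a related receptor of another class, Flt1, a receptor of vascular endothelial growth factor 161.1 kb away, rose: it was at 3.04, 8.27 and 17.7 CPM in NT, Low and High of K3117 and 3.15, 10.8 and 9.76 CPM in K3174. High over NT was 2.13 ± 0.29 (adjusted p = 0.000312) and Low over NT 1.64 ± 0.28 (adjusted p = 0.00892), the latter lost without the Low library of K3174 (1.19, adjusted p = 0.126). D5Ertd605e, a long noncoding RNA that starts 18.1 kb upstream of Flt3 on the opposite strand, was at 15.7, 10.1 and 6.54 CPM in K3117 and 17.2, 11.3 and 8.11 CPM in K3174. Its libraries kept the order NT, Low, High in both leukemias, as those of Flt3 did, with a High over NT value of -1.17 ± 0.17 (adjusted p = 0.000685) and a Low over NT value of -0.62 (adjusted p = 0.0827). Pan3, a deadenylase subunit 29.7 kb away, did not pass (-0.12, adjusted p = 0.646).

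Kit stands in a stretch with few counted genes: 3 of 25 within 500 kb were tested, Gm19590, Gm6051 and Srd5a3, and none passed for High over NT (adjusted p of 0.194 to 0.369). The one above 1 CPM, Srd5a3, a polyprenol reductase 483.5 kb away, had 0.24 ± 0.13 (adjusted p = 0.274) for High over NT. Around Csf1r, 14 of 26 were tested, with a median of -0.17. Camk2a, a calmodulin kinase 112.4 kb away, had -1.99 ± 0.33 (adjusted p = 0.00137, 4.37 to 1.13 CPM). Ppargc1b, a transcriptional coactivator, had -0.76 ± 0.23 (adjusted p = 0.0439), and Arhgef37, under 1 CPM in all groups, had 2.97 ± 0.72 (adjusted p = 0.0139). The last 2 calls were lost without the NT library of K3174 (adjusted p = 0.376 and 0.158) and without its High library (0.279 and 0.125).

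**Figure D5:**
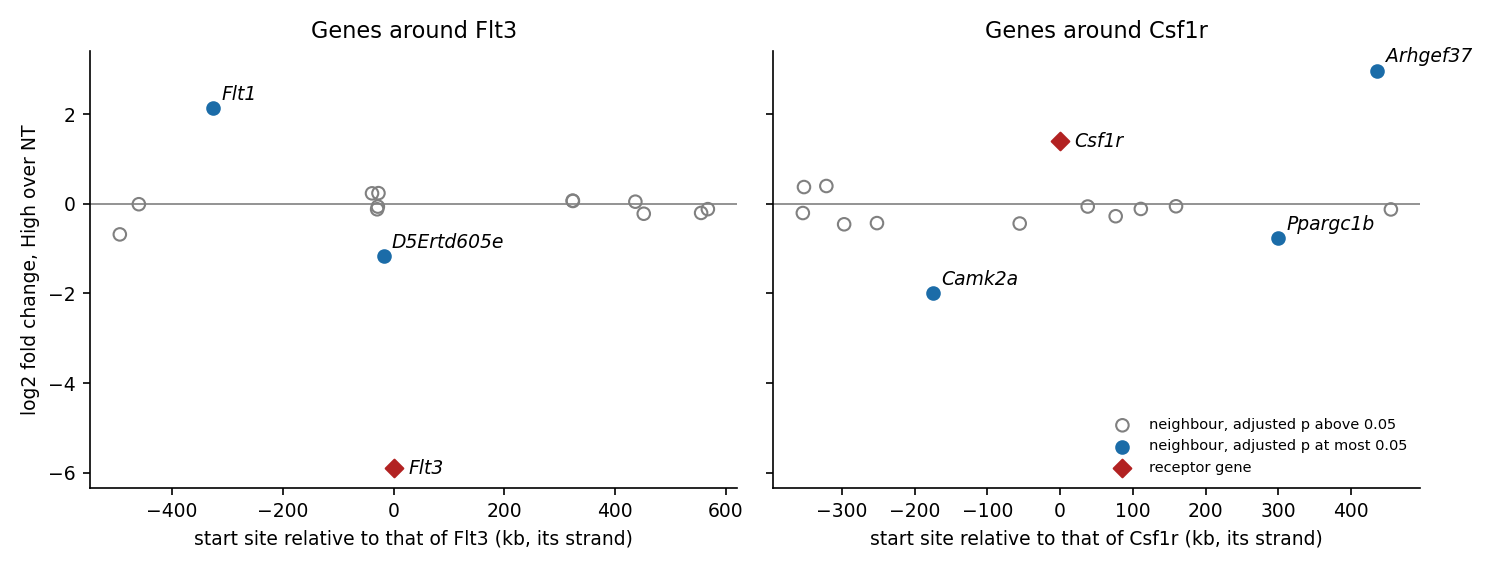
Log2 fold change for High over NT (vertical axis) of the tested genes within 500 kb of Flt3 (left) and Csf1r (right), placed by their start relative to that of the receptor (kb, on the receptor's strand). The receptors are red diamonds, neighbours past the threshold are filled blue and the rest are open; most neighbours lie near 0, Flt1 lies above and D5Ertd605e below beside Flt3, and Pdgfrb is the open point closest to the left of Csf1r.

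The ligand genes lie among more genes. Around Flt3l 56 of 95 were tested, and Ptov1, Gys1 and Nucb1 were among those that rose for High over NT, while Myh14, Trpm4 and Kcna7 fell, with a median of -0.12. Of these 6, Gys1 (0.84 ± 0.12) and Trpm4 (-1.21 ± 0.24) kept their calls whichever library was left out, and the other 4 lost theirs without at least the High library of K3174 (adjusted p of 0.107 to 0.372). Fcgrt, 25.9 kb away, rose for High over Low (1.45, adjusted p = 0.0316) and lost the call without that library as well (1.09, adjusted p = 0.276). Around Csf1 21 of 49 were tested, and Gstm1, Gm12498 and Ampd2 rose while 4933431E20Rik, Gstm7 and Gstm2 fell. Gstm1 (0.69 ± 0.11) kept its call whichever library was left out. The others lost theirs without at least 1 of the NT and High libraries: Ampd2 (adjusted p = 0.144) and Gstm7 (0.0902) without High of K3117, Gm12498 (0.108) and Gstm2 (0.128) without High of K3174, and 4933431E20Rik (0.232) without NT of K3117. The Gstm genes are close paralogs whose counts may be split unevenly.

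The genes whose log2 CPM followed each receptor most closely over the 6 libraries were listed as a description, and with 6 points that share labels and leukemias no p is given. For Flt3, among 128 genes of like spread, they were Tns1 (r = 0.93), Jag2 (0.93), Dlk1 (0.93) and Pcp4l1 (0.93). Dlk1, a Notch-related surface protein, was at 105.5, 31.9 and 11.3 CPM in NT, Low and High of K3117 and 236.4, 32.7 and 10.8 CPM in K3174. The opposite pattern was closest in Olfml2b (-0.99) and C5ar1 (-0.98), the receptor of complement fragment C5a, at 1.05, 2.11 and 14.6 CPM in K3117 and 1.53, 3.51 and 17.7 CPM in K3174. For Kit, among 3783 genes, they were Trim45 (0.99), Ppm1e (0.98), Col4a1 (0.98) and Sqle (0.98), with Tldc1 (-0.99) and Abcb4 (-0.98) opposite. Sqle, squalene epoxidase of cholesterol synthesis, was at 112.7, 195.2 and 197.6 CPM in K3117 and 149.4, 210.5 and 194.9 CPM in K3174, a single step between NT and Low.

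For Csf1r, among 1215 genes, the closest were Lpl (0.99), Camk2d (0.99), Il13ra1 (0.99) and Saa3 (0.99), with B3gnt5 (-0.94) and Fam174b (-0.94) opposite. Lpl, lipoprotein lipase, was at 17.1, 16.2 and 71.5 CPM in NT, Low and High of K3117 and 6.13, 7.17 and 24.0 CPM in K3174. Like Csf1r it was higher in K3117 at every label and rose between Low and High. By rank the lowest correlation among the 4 closest genes was 0.83 for Flt3, 0.77 for Kit and 0.89 for Csf1r.

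The libraries of K3117 and K3174 differed in Csf1r and its ligand. No further leukemia stood on either side, so the p-values of this contrast do not measure the spread between leukemias. Csf1r was 1.92-fold lower in K3174 than in K3117 over the 3 labels (log2 fold change -0.94 ± 0.10, adjusted p = 9.15e-05), and lower at each label. Csf1 was 1.67-fold lower (-0.74 ± 0.19, adjusted p = 0.0285), a call lost without the Low library of either leukemia (-0.57, adjusted p = 0.275, and -0.56, adjusted p = 0.276). Flt3 (-0.19 ± 0.19, adjusted p = 0.69), Kit (0.24 ± 0.09, adjusted p = 0.146, an interval of 1.03 to 1.36 for the fold) and Flt3l (-0.12 ± 0.29, adjusted p = 0.903) did not pass. Of the 5 genes 2 passed, both lower in K3174, where 9.37% of all genes passed. Of 12 monocyte and macrophage markers tested, 9 were lower in K3174 and none higher. With the labels left out of the model, neither gene passed (adjusted p = 0.651 for Csf1r and 0.502 for Csf1).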

How the data were processed

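The counts were used as the authors deposited them, whole numbers for every gene in 1 column for each library; no column was left unused. Per the submitters' processing notes, the tools were STAR, STAR-Fusion, kallisto and DESeq2 and the build was mm10, with no roles stated. Which tool counted, with which annotation and whether by strand, is not given in the sources used here. Reads were paired, 150 bp each, per the labels' protocols. GENCODE M21 on GRCm38 (the assembly of mm10) gave symbols for 99.48% of IDs, positions and exon lengths.

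Groups came from the library titles. In edgeR 4.0.16 (R 4.3.3), 15812 genes passed the expression filter and TMM factors ran from 0.973 to 1.04. A single quasi-likelihood model over the 6 libraries held the 3 labels and a leukemia block (residual degrees of freedom 2, prior 9.38, common biological coefficient of variation 12%). The block follows the K numbers of the titles, and the pairs' deviations from their group means correlated across genes (0.57 for NT and Low, 0.44 for NT and High, 0.64 for Low and High). Each SE was derived from the F statistic. Within a leukemia, log2 CPM took a prior count of 2. RPKM divides CPM by the merged exon length. Every 2 libraries differed by more than sampling noise (lowest chi-square per degree of freedom 24.2). Tested on simulated data for High over NT, with 200 of 15435 genes changed, the model recovered 96% of 2-fold and 100% of 4-fold changes and made 3 false calls. The simulation gave every gene the same biological coefficient of variation and the same change in both leukemias. Only genes with a mean CPM of at least 5 were changed, and a smaller share than the 17.3% called here. Its rates therefore need not hold for these data, or for genes at lower levels such as Flt3l and Kitl.

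The members, the gene lists and the tests were chosen with earlier results of these data known. Genes were named by a rule: the 5 members, the rest of the receptor class and its ligands, Dot1l, the 5 genes of each pathway list with the smallest p for High over NT, neighbours within 500 kb that passed, and per receptor the 4 genes most and 2 least correlated, at a mean CPM of at least 5 and an SD of at least 50% of the receptor's. Some genes that this rule names are not reported here. Other genes taken from the lists were chosen after their values were seen. Alternatives were DESeq2 1.42.0, limma 3.58.1, other scalings and filters, fewer libraries and no block. A planned comparison of receptor proteins was not run, since no protein sequences were used here.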

Additional observations from a re-analysis of the deposited data

Results flagged for a closer look

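The ligands and the PDGF members of the family moved in opposite directions in the leukemias in 6 cases, and in none was the difference between the leukemias tested. For Flt3l the log2 CPM difference was -0.52 in K3117 and 0.24 in K3174 for High over NT, 0.051 and -0.52 for Low over NT, and -0.57 and 0.76 for High over Low, from 35 to 75 counts a library. For Csf1, Low over NT was 0.15 in K3117 and -0.050 in K3174. Pdgfrb differed by -0.58 in K3117 and 0.051 in K3174 for High over Low. Pdgfb, with 1 to 16 counts a library, differed by 0.42 in K3117 and -0.50 in K3174 for High over NT. With 1 library per label in each leukemia, these values have no replicate within a leukemia.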

How the results depend on the processing

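For High over NT, Flt3, Kit and Csf1r kept their direction in every alternative run and stayed past the threshold in all of them except, for Kit and Csf1r, the model without the replicate block. Without the block the values were 0.68 for Kit (adjusted p = 0.0734) and 1.36 for Csf1r (0.188) for High over NT, -2.14 for Flt3 (0.304) and 0.73 for Kit (0.575) for Low over NT, and -3.74 for Flt3 (0.184) and 1.26 for Csf1r (0.585) for High over Low; genes called numbered 493 of the main 2741 for High over NT, 0 for Low over NT (edgeR, 950 at an unadjusted p under 0.05) and 0 for High over Low (1238). Kit for Low over NT ranged from 0.68 to 0.80 with 1 library left out and missed the threshold without Low of K3174 (adjusted p = 0.0548).

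Csf1 for High over NT passed with no filter on low counts (0.60, adjusted p = 0.0446) and ranged from 0.24 to 0.95 with 1 library left out. Leaving out 1 library changed the sign of uncalled values of the ligands: Flt3l ranged from -0.67 to 0.39 for High over NT, from -0.74 to 0.23 for Low over NT, from -0.45 to 0.62 for High over Low (-0.36 without Low of K3174) and from -0.46 to 0.23 for K3174 over K3117 (0.21 without Low of K3117), and Csf1 from -0.22 to 0.30 for Low over NT (-0.03 without NT of K3174). For K3174 over K3117, leaving the labels out of the model gave -0.89 for Csf1r (adjusted p = 0.651), -0.68 for Csf1 (0.502) and 90 called genes. Csf1 was at -0.73 with a mean CPM of at least 5 (0.0522) and between -0.98 and -0.56 with 1 library left out.

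Counts of called genes moved most. Low over NT gave 1071 with no filter, 343 at a mean CPM of at least 5, 881 with the 4 libraries compared and 144 to 1483 with 1 library left out, against 528. High over Low gave 1425, 522, 1864 and 335 to 1982, against 866. High over NT gave 1927 to 4394 with 1 library left out, and K3174 over K3117 gave 849 at a mean CPM of at least 5 and 829 to 2642. Of the calls for High over NT 57.8% were higher, against 43.9% of 2953 under upper quartile scaling (median of all genes -0.11) and 49.1% of 2748 with library sizes alone. The other named genes were recomputed only in the label contrasts that they passed in the main run, so none could gain a call. Of those recomputed values 969 stayed past the threshold, 157 lost it and 0 changed sign. The causes of these changes were not tested. With 2 libraries a group, and 10 and 16 counts of Flt3 in the High libraries, the depth limits how closely the size of its fall is known.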
